A study of Mus musculus with 22 samples.

Results

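The small leucine-rich proteoglycans (SLRPs) were examined across the sorted stroma of mouse breast tumors. The 10 members, *Dcn*, *Bgn*, *Aspn*, *Lum*, *Fmod*, *Prelp*, *Omd*, *Kera*, *Ogn* and *Podn*, were taken by gene symbol from the 41388 genes counted in every library. All had an Ensembl ID in the files. Of these, 9, all but *Kera*, passed the filter of more than 1 CPM (counts scaled to the library total) in at least 2 libraries, and 15018 genes passed it in all.

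The 22 libraries came from Osx-cre;Ai9 mice, labelled wild type (WT), and from Cdh2-cKO;Ai9 mice, labelled Cdh2-cKO, a conditional knockout of N-cadherin (*Cdh2*). All mice were C57BL/6 at postnatal day 56 and carried the Ai9 reporter. In Osx-cre mice Cre is driven by regulatory sequence of *Sp7* (Osterix, Osx), so TdTomato (TdT) marks cells that expressed *Sp7* while Cre was active, and their progeny. The study describes this Cre as repressible by doxycycline. It states that mice fed doxycycline until weaning served in all studies after its first ones, without repeating the diet for this experiment. The labels call the marked cells Osx+ in both genotypes but do not spell out the Cre of the Cdh2-cKO mice. Tumor cells of a GFP-labeled line were removed, and the remaining cells were sorted by TdT and CD45, the pan-leukocyte surface protein. The labels call the tumors orthotopic MMTV-BO1, whereas the design text and the study's account of this experiment give subcutaneous tumors. The 4 populations are TdT single positive (Osx+ CD45-), double negative, double positive and CD45 single positive. Each genotype gave 2 TdT single positive libraries and 3 of each of the rest. The labels describe 4 inoculated wild type and 6 Cdh2-cKO mice and call the libraries biological replicates, without tying a library to an animal, so one mouse may have given several populations.

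SLRPs are secreted proteins whose core is a row of leucine-rich repeats, most of them carrying glycosaminoglycan chains, such as dermatan sulfate or keratan sulfate. They bind collagen fibrils and set fibril diameter and spacing, and several hold growth factors such as TGF-β in the matrix. Fibroblasts and other connective tissue cells are their usual source, and in tumors they belong to the matrix laid down by cancer-associated fibroblasts. Decorin (*Dcn*), biglycan (*Bgn*) and asporin (*Aspn*) form class I. Lumican (*Lum*), fibromodulin (*Fmod*), *Prelp*, osteomodulin (*Omd*) and keratocan (*Kera*) form class II. Osteoglycin (*Ogn*) belongs to class III and podocan (*Podn*) to a more distant class.

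Most members lie in clusters in the mouse genome (GRCm38, positions from the files). On chromosome 10, *Dcn* (97479500 to 97518162), *Lum* (97565501 to 97572703) and *Kera* (97607205 to 97613688) follow each other on the way to *Epyc*, with gaps of 47.3, 34.5 and 30.4 kb. On chromosome 13, *Ecm2* is followed by *Aspn* (49544443 to 49567557), *Omd* (49582766 to 49592609) and *Ogn* (49608071 to 49624500), with gaps of 11.7, 15.2 and 15.5 kb. On chromosome 1, *Prelp* (133910304 to 133921414) lies 115.8 kb from *Fmod* (134037254 to 134048277). *Bgn* (X, 73483602 to 73495933) and *Podn* (4, 108014791 to 108096445) have no other member beside them. No protein-coding gene lay wholly within any of these gaps. *Cenpp*, a protein-coding gene on the opposite strand, overlaps *Aspn*, *Omd* and *Ogn* and so runs through the gaps between them.

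Promoter sequences were available from RefSeq (GRCm38.p6) for 8 of the 10 members, all but *Dcn* and *Lum*. The 4 shown are those of an abundant member (*Bgn*), of both ends of the *Aspn*, *Omd*, *Ogn* cluster, and of *Kera*, the member that was barely counted. Each is the 250 bases before the transcription start, 5′ to 3′, on the + strand. They lie at chrX:73483351-73483600 (*Bgn*), chr13:49544193-49544442 (*Aspn*), chr13:49607765-49608014 (*Ogn*) and chr10:97606955-97607204 (*Kera*). Capitals mark matches, on either strand, to 5 motifs, with N for any base. They were TATAAA, known as the TATA box, GGGCGG, known as the GC box, TGANTCA, bound by AP-1 factors, GGAATG, bound by TEAD factors, and TGTGGT, bound by RUNX factors.

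Bgn promoter: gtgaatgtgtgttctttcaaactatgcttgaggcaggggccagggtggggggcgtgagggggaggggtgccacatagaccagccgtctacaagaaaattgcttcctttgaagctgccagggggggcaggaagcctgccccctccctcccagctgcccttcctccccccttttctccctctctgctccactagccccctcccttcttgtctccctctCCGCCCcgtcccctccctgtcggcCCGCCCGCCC
Aspn promoter: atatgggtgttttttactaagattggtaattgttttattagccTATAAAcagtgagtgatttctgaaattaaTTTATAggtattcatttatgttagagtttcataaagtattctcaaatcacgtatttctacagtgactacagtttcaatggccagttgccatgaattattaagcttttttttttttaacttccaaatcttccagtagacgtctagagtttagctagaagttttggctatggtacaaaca
Ogn promoter: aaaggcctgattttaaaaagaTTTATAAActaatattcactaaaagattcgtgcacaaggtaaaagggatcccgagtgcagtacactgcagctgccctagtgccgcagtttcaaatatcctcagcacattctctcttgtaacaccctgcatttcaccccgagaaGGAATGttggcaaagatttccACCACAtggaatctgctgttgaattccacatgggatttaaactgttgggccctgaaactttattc
Kera promoter: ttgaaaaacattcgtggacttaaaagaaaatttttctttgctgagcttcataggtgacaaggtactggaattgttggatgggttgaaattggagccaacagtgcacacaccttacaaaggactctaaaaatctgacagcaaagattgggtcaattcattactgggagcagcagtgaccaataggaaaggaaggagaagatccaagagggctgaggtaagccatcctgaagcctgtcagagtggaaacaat

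The *Bgn* promoter had a GC content of 64.4% and 3 GC box matches, starting 34, 10 and 6 bases before the transcription start (the last 2 overlap). That of *Aspn* had 30.0% GC and 2 TATA box matches, 207 and 178 bases before the start. *Ogn* had 2 overlapping TATA box matches on opposite strands, 229 and 227 bases before the start, a TEAD match 86 and a RUNX match 65 bases before it. *Kera* had none of the 5 motifs, and neither had *Fmod*, *Omd* or *Prelp*. The 2 *Podn* promoters included 1 with GC box matches, 202 and 70 bases before its start. Among all 32851 promoters of this length, 12.4% held the TATA box letters, 32.7% the GC box, 6.75% AP-1, 12.6% TEAD and 14% RUNX, and the median GC content was 52.4%. These matches describe the letters only.

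Before the members, the sort and the genotype were checked on their own genes, in CPM after TMM normalization (normalized CPM). *Cdh2* was not lower in the libraries labelled Cdh2-cKO. It was at 9.13 and 5.19 in wild type TdT single positive libraries and at 17.2 and 13.1 in those labelled Cdh2-cKO. In double negative libraries it was at 6.02, 7.47 and 4.52 in wild type and at 12.5, 18.4 and 14.2 in Cdh2-cKO. The difference was a log2 fold change of 1.08 (SE 0.84) in the former and 1.32 (SE 0.69) in the latter, with edgeR adjusted p-values of 0.668 and 0.623. Which part of *Cdh2* was deleted is not given in the sources used here, and a count over the whole gene cannot show the loss of a part. *Sp7* itself had 2 counts in all CD45- libraries together and 1 in all CD45+ libraries. *Ptprc*, which encodes CD45, ranged from 472 to 1821 in CD45+ and from 2.45 to 337 in CD45- libraries. Its highest CD45- values were in wild type double negative replicate 3 (337) and Cdh2-cKO TdT single positive replicate 1 (164). Library totals ran from 16594228 to 26784003 counts.

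The members fell into 3 tiers of abundance in the CD45- libraries, and the order varied little from library to library. Levels between genes are compared per length, in RPKM from the TMM-scaled totals. *Dcn*, with a median of 807 RPKM, and *Bgn*, with 578, took the first 2 ranks in all 10 CD45- libraries, in either order. *Lum* (median 248) held rank 3 and *Aspn* (81.4) rank 4 in all 10. *Prelp* (25.7) and *Ogn* (24.8) shared ranks 5 and 6 and changed places between libraries. *Omd* (2.87), *Fmod* (1.19), *Podn* (1.08) and *Kera* (0.0899) came last. *Omd* and *Podn* varied between ranks 7 and 9, *Fmod* between 8 and 10, and *Kera* between 9 and 10, so the order within this tier does not hold beyond the spread of the libraries. All levels that follow are in normalized CPM.

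The 3 most abundant members lay at 261 CPM or more in every CD45- library and at 35.4 CPM or less in every CD45+ library. *Dcn*, whose protein binds collagen I and TGF-β, was at 3822 and 3103 in wild type TdT single positive libraries, and at 2981, 1823 and 736 in wild type double negative ones. In the Cdh2-cKO libraries *Dcn* was at 964 and 1298 in TdT single positive, and at 1539, 990 and 1823 in double negative cells. Across the 12 CD45+ libraries it ranged from 4.16 to 25.8, so the lowest CD45- library lay far above the highest CD45+ library.

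*Bgn*, the other class I proteoglycan with glycosaminoglycan chains and, in soluble form, a ligand of Toll-like receptors, was the member with the most counts. It reached 10089 and 4345 in wild type TdT single positive libraries, and 5859, 1996 and 995 in wild type double negative ones. In Cdh2-cKO it was at 2717 and 4529 in TdT single positive and at 1698, 2188 and 4334 in double negative cells. The CD45+ libraries ranged from 10.8 to 35.4 and did not overlap with the CD45- libraries. *Lum*, a keratan sulfate proteoglycan of the cornea and of many connective tissues, was at 1601 and 897 in wild type TdT single positive libraries, and at 1095, 472 and 261 in double negative ones. The Cdh2-cKO libraries held 375 and 557 CPM of *Lum* in TdT single positive, and 460, 354 and 657 in double negative cells, against 1.31 to 14.6 in CD45+ libraries.

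The middle tier showed the same split with less RNA. *Aspn*, a class I member that binds collagen and TGF-β, was at 402 and 270 in wild type TdT single positive libraries and at 238, 132 and 36.0 in double negative ones. In Cdh2-cKO, *Aspn* was at 97.1 and 529 in TdT single positive and at 131, 291 and 144 in double negative cells, and the CD45+ range was 0.686 to 2.72. The 2 Cdh2-cKO TdT single positive libraries thus enclosed all but 1 of the other CD45- values of *Aspn*. *Prelp*, a class II member that binds collagen and heparan sulfate, ran from 29.0 to 169 in CD45- and from 0.106 to 3.61 in CD45+ libraries. *Ogn*, also called mimecan, ran from 22.7 to 115 in CD45- and from 0.0641 to 2.01 in CD45+ libraries. Neither overlapped between the CD45 gates.

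The sparse members were counted almost entirely in CD45- libraries. *Fmod*, a collagen-binding keratan sulfate proteoglycan of tendon and cartilage, was at 10.2 and 11.9 in wild type TdT single positive libraries, and at 4.05, 2.10 and 0 in wild type double negative ones. In Cdh2-cKO it was at 3.56 and 5.47 in TdT single positive and at 0.999, 4.46 and 3.79 in double negative cells. Of the 12 CD45+ libraries, 10 had no *Fmod* count and 2, both Cdh2-cKO CD45 single positive, had 1 each. The 0 in wild type double negative replicate 3 allows up to 0.165 CPM (3 counts), and this one library made *Fmod* overlap between the gates. *Podn*, a secreted leucine-rich repeat protein, was at 14.9 and 11.2 in wild type TdT single positive libraries and at 15.3, 4.09 and 0.826 in double negative ones. Across the Cdh2-cKO CD45- libraries *Podn* ran from 2.33 to 6.11, and in CD45+ libraries from 0 to 0.334. *Omd*, a keratan sulfate proteoglycan of bone and teeth, ran from 1.60 to 8.87 in CD45- and from 0.0585 to 0.654 in CD45+ libraries. *Kera*, the keratan sulfate proteoglycan of the cornea, had 95 counts in all, of which 64 were in wild type TdT single positive replicate 1 (3.27 CPM), and it was at 0 in all 12 CD45+ libraries.

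**Figure D1:**
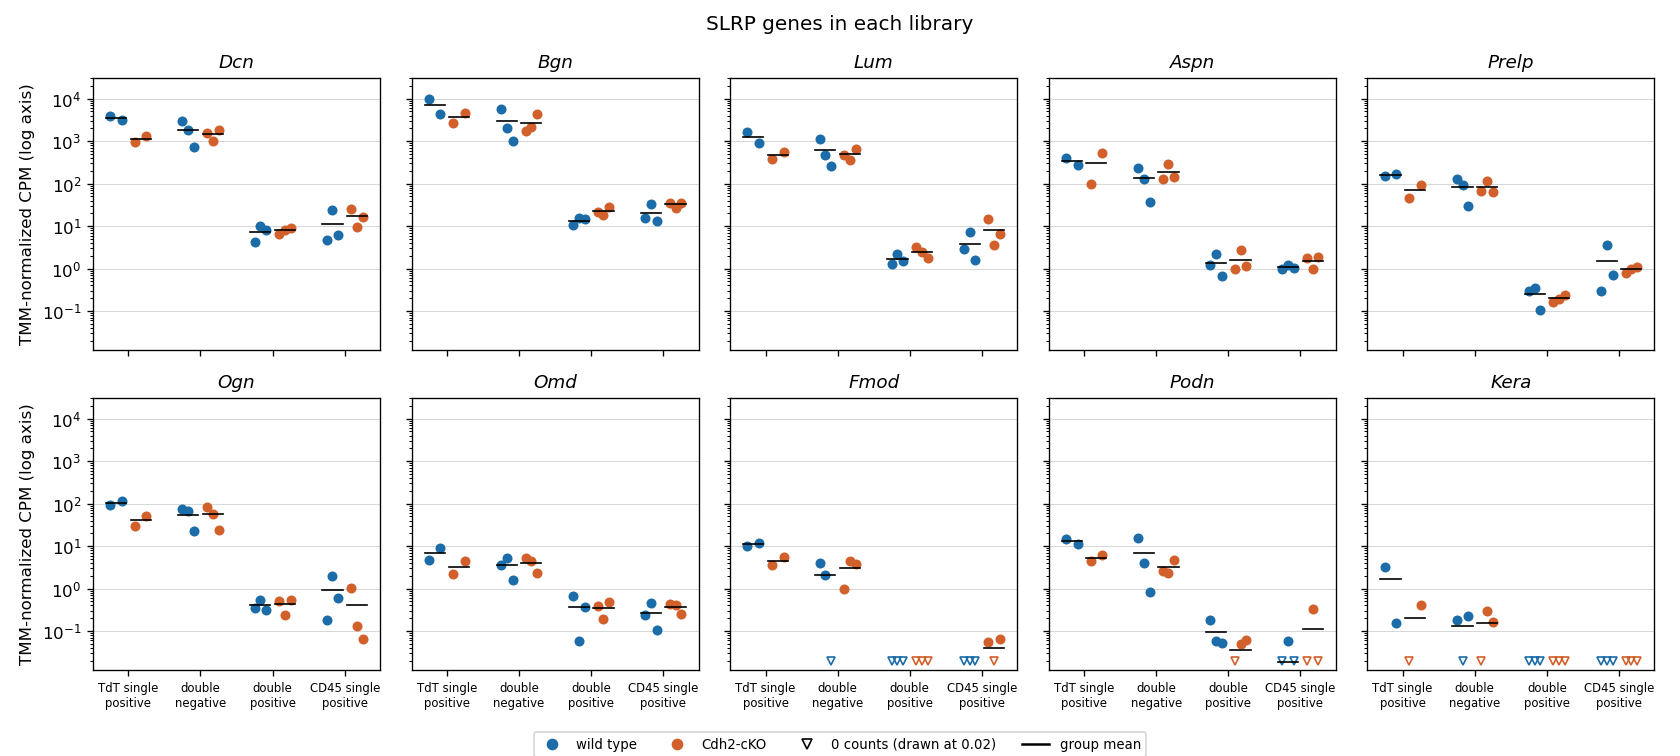
Normalized CPM of the 10 SLRP genes (log axis) in each of the 22 libraries, by sorted population, with wild type in blue, Cdh2-cKO in orange, open triangles for 0 counts and black lines for group means. In 8 of the 10 genes, all but *Fmod* and *Kera*, the lowest CD45- library (TdT single positive or double negative) lies above the highest CD45+ library.

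The first comparison asked how the SLRP genes differed between the CD45- stroma and the CD45+ cells. All 9 members tested were higher in CD45- cells (edgeR quasi-likelihood test, threshold of 0.05 on the adjusted p and of 2 on the log2 fold change), and 16.1% of all genes tested were called higher there. *Dcn* differed by 7.43 in log2 (SE 0.37), *Lum* by 7.57 (SE 0.38) and *Bgn* by 7.48 (SE 0.36). *Prelp* (7.47, SE 0.41), *Aspn* (7.36, SE 0.41), *Ogn* (6.85, SE 0.44) and *Podn* (6.72, SE 0.61) were in the same range. *Omd* differed least, by 3.64 (SE 0.36). *Fmod* had the largest fitted value, 8.65 (SE 0.91), which depends on the prior count because nearly all CD45+ libraries were at 0. The adjusted p-values of the 9 lay between 5.96e-11 and 6.77e-06, and the median over all genes tested was -0.06. In the CPM of the filter, scaled to the library total without TMM, *Fmod*, *Omd* and *Podn* stayed below 1 in every CD45+ library, and *Ogn* and *Prelp* in all but 1. These members passed the filter through the CD45- libraries and their calls add no support. Among all genes tested, 11% had every CD45- library above every CD45+ library, as 8 of the 9 members had. In bulk populations, fewer cells with a transcript and less RNA per cell cannot be told apart.

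The same difference stood in each genotype by itself. In wild type, the 9 members differed by 3.96 to 9.54 in log2, all called, beside 15.6% of all genes called higher. In Cdh2-cKO they differed by 3.32 to 7.75, all called, beside 16%. As plain ratios of the mean over CD45- libraries to the pooled CD45+ libraries, *Lum* was 317-fold, *Bgn* 272-fold and *Dcn* 264-fold higher in wild type. In Cdh2-cKO the ratios of these 3 were 89.5, 113 and 105. *Omd* had a ratio of 15.6 in wild type and 10.5 in Cdh2-cKO. *Fmod* was at least 199-fold higher in wild type, against 3 counts over the group, and 190-fold higher in Cdh2-cKO, where it rested on 2 counts with a 95% counting interval of 52.7 to 1572. *Kera* was at least 26.9-fold higher in wild type, where 1 library held most counts, and at least 6.02-fold in Cdh2-cKO. The median log2 fold change of the 9 in wild type was 7.53, also with *Fmod* set to its bound of 7.63.

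Cell type markers moved with the same gate: of those tested, 7 of 7 fibroblast, 4 of 5 pericyte and 4 of 5 endothelial markers were called higher and 8 of 8 leukocyte markers lower in CD45- cells. Of 5 epithelial markers, 3 (*Krt8*, *Krt18*, *Krt19*) were called higher and 2 (*Epcam*, *Cdh1*) lower. The summed normalized CPM of 7 fibroblast markers (such as *Col1a1* and *Col3a1*) ran from 3322 to 54905 in CD45- and from 60.1 to 193 in CD45+ libraries. *Col1a1* differed by 7.51 (SE 0.37) and *Col3a1* by 7.46 (SE 0.40) in log2, both called, values close to those of the abundant SLRP genes. Summed pericyte markers were at 98.8 to 1404 in CD45- and 3.27 to 114 in CD45+ libraries, and summed epithelial markers at 33.8 to 1994 and 132 to 470. Their part in the SLRP levels was not tested. Osteoblast markers were low, at 6.71 to 65.3 CPM summed in CD45- and 0 to 3.81 in CD45+ libraries. The 3 of 5 that were tested were all called higher in CD45- cells, *Ibsp* by 5.14, *Alpl* by 4.35 and *Dmp1* by 4.14 in log2. *Sp7* and *Bglap* were at 0 in TdT single positive libraries. Cartilage markers summed to at most 6.99 and tendon markers to at most 6.52 CPM in CD45- libraries. Of those tested, 0 of 2 cartilage and 2 of 3 tendon markers were called higher.

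The SLRP genes took between 0.211% and 1.68% of all counts in a CD45- library (median 0.644%), and between 0.00172% and 0.00725% in a CD45+ library (median 0.00286%). The make-up of these transcripts per length was nevertheless similar on both sides of the gate for the abundant members. *Dcn* made up a median of 45.1% of the summed SLRP RPKM in CD45- and 42.3% in CD45+ libraries. *Bgn* made up 30.6% and 31.6%, *Lum* 15.7% and 13.6%, and *Aspn* 3.71% and 4.52%. *Omd* stood apart, with a median of 0.150% (0.0682% to 0.250%) in CD45- and 1.74% (0.386% to 7.53%) in CD45+ libraries. These ranges do not overlap, but *Omd* had only 1 to 11 counts in a CD45+ library (70 in all). The lower end of 0.386% rests on 1 count, in wild type double positive replicate 2. How many other genes would not overlap on this measure was not computed. *Omd*, like *Aspn* and *Ogn*, lies within an intron of *Cenpp* on the opposite strand, and the library kit does not mark strand. *Cenpp* had a median of 8.65 CPM in CD45- and 11.9 CPM in CD45+ libraries, above *Omd* in the latter, and no annotated exon of the 2 genes overlaps. Whether reads from *Cenpp* were counted on *Omd* was not tested.

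**Figure D2:**
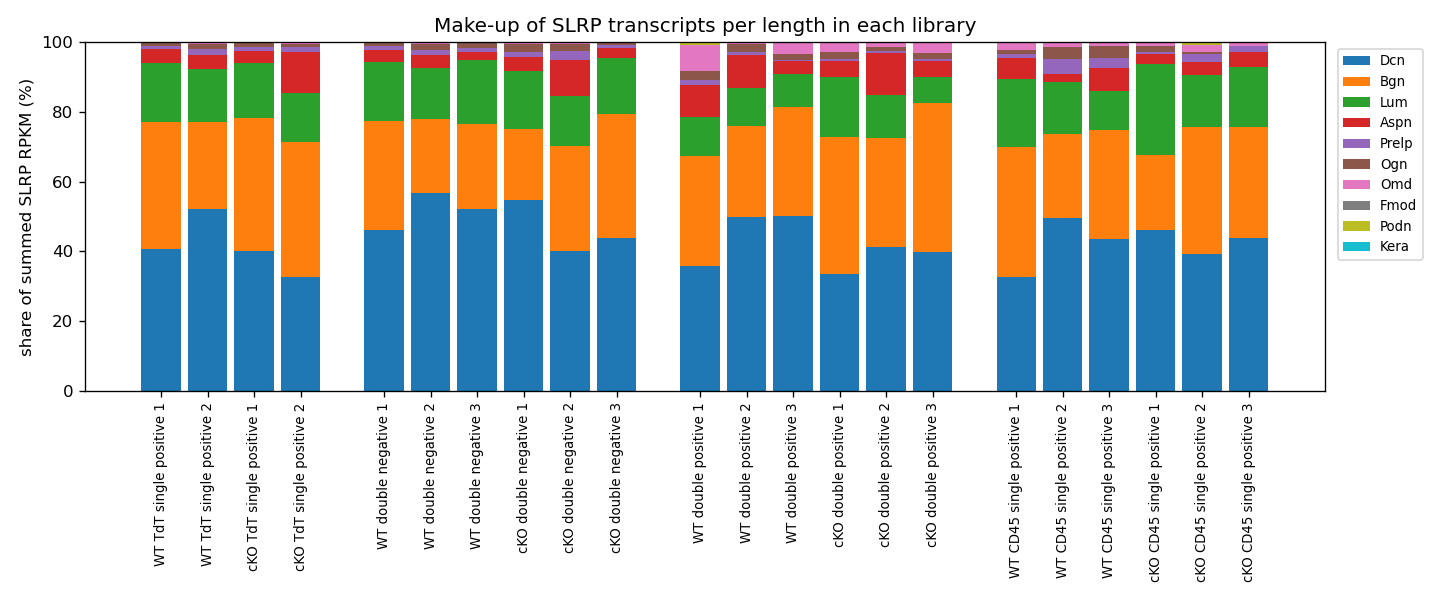
Share of each SLRP gene in the summed SLRP RPKM (%) in each of the 22 libraries, grouped by sorted population. *Dcn*, *Bgn* and *Lum* make up most of every bar, and the pink part of *Omd* is visible in the CD45+ libraries only, up to 7.53%.

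The second comparison asked whether the Osx-lineage CD45- cells differed from the rest of the CD45- stroma. No member was called between TdT single positive and double negative cells over both genotypes, beside 0.260% of all genes tested (39 genes, with 2847 at an unadjusted p under 0.05; 80 genes with voom, 130 with DESeq2 and 23 under a block for the replicate number, no member among them). All 9 fitted differences were positive. They ran from 0.23 in log2 for *Ogn* to 1.48 for *Fmod* (SE 0.78, adjusted p 0.329), with a median of 0.48 beside 0.07 over all genes. *Aspn* had 1.02 (SE 0.48, adjusted p 0.255) and *Bgn* 0.85 (SE 0.42, adjusted p 0.281). For *Dcn* the difference was 0.27 (SE 0.44) and for *Lum* 0.48 (SE 0.44). The leukocyte markers, summed, ran from 130 to 10591 CPM in TdT single positive and from 198 to 15465 in double negative libraries, and the fibroblast markers from 12580 to 54905 and from 3322 to 28492. Their part in these differences was not tested. Deviations from the group means correlated in the 4 same-numbered pairs of these 2 populations (r of 0.113 to 0.593), only a hint of pairing. With 2 TdT single positive libraries per genotype, their deviations mirror each other, so the 4 values are not independent. Wild type TdT single positive replicate 2 had a higher r with double negative replicate 3 (0.428) than with replicate 2 (0.215). Within the 4 same-numbered pairs *Bgn* and *Fmod* were higher in TdT single positive cells in 4 of 4, beside 20.8% of all genes, and the other members in 2 or 3. With the replicate number as a block, *Fmod* had 1.47 (SE 0.52, adjusted p 0.186) and *Bgn* 0.93 (SE 0.41, adjusted p 0.232).

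In this comparison 5 members had opposite signs in the 2 genotypes, and the test of the difference between the genotypes called none. In wild type the 9 differences ran from 0.91 (*Dcn*) to 2.42 (*Fmod*, SE 1.12, adjusted p 0.306), none called, beside 0.0932% of all genes (14 genes, and 4 under the replicate block). Both wild type TdT single positive libraries lay above all 3 double negative libraries for 5 members (*Dcn*, *Aspn*, *Prelp*, *Ogn* and *Fmod*), beside 16.1% of all genes tested. Without wild type double negative replicate 1, *Bgn* was called, at 2.27 (SE 0.55, adjusted p 0.0387), whereas with all libraries it was at 1.29 (SE 0.59, adjusted p 0.285). Without replicate 3, the double negative library with the most *Ptprc*, *Fmod* was at 1.86 and *Bgn* at 0.89. In Cdh2-cKO the differences ran from -0.47 (*Ogn*) to 0.73 (*Podn* and *Aspn*), 4 positive and 5 negative and none called, beside 0.0266% of all genes. The difference between the genotypes was negative for all 9 members, from -0.22 to -1.88, but none was called, beside 0.00666% of all genes (1 gene, and 0 with the block), and the smallest unadjusted p among them was 0.168.

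The ratio of most members to *Col1a1* in the same library was higher in double negative than in TdT single positive cells. *Col1a1* itself was higher in TdT single positive cells, by 1.43 in log2 (SE 0.43, edgeR adjusted p 0.0907, not called). The log2 ratio of *Dcn* to *Col1a1* lay between -2.92 and -1.76 in the 4 TdT single positive libraries and between -1.75 and -0.53 in the 6 double negative ones. For *Lum* the ranges were -4.14 to -3.55 and -3.19 to -2.23, and for *Bgn* -1.27 to -1.03 and -0.77 to -0.29. These 3 of the 8 members with at least 10 counts in every CD45- library did not overlap, beside 6.08% of 11873 other genes. The mean difference over the 8 ran from 0.38 (*Podn*) to 1.28 (*Omd*), with a median of 1.13. The median over the other genes was 1.57, and 99.5% of them were above 0, so the members lay closer to *Col1a1* than the typical gene did. The ratio was also taken against the mean log2 CPM of the fibroblast markers. There *Lum* alone of the 8 did not overlap, with a mean difference of 0.80, beside 2.57% of the other genes, whose median was 1.29.

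**Figure D3:**
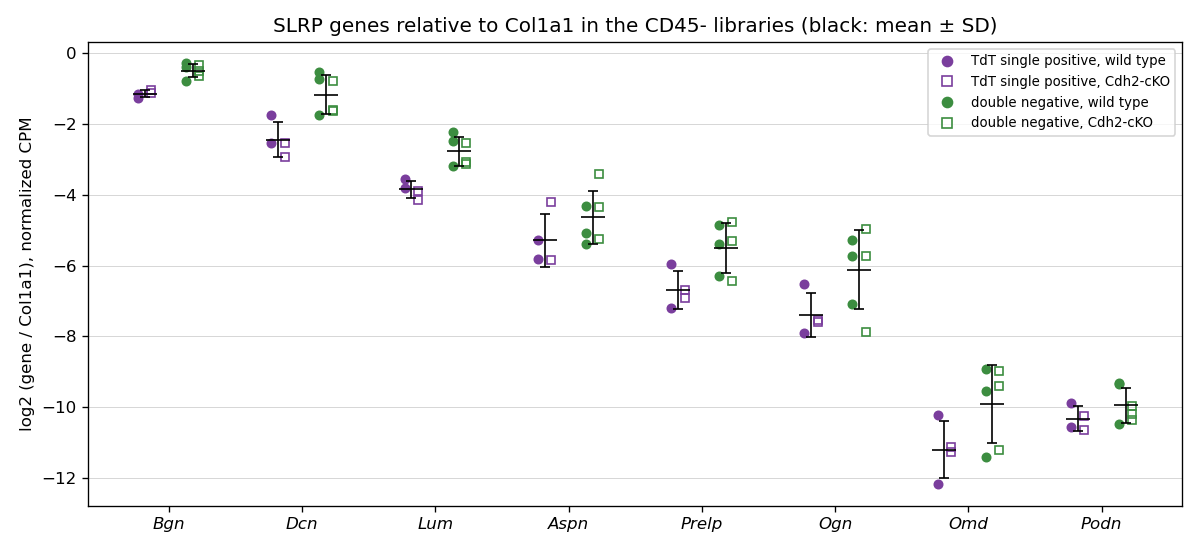
The log2 ratio of normalized CPM of 8 SLRP genes to *Col1a1* in each CD45- library, TdT single positive in purple and double negative in green, filled for wild type and open for Cdh2-cKO, with black bars for mean ± SD over 4 and 6 libraries. The 2 populations do not overlap for *Bgn*, *Dcn* and *Lum*.

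A further comparison set the double positive against the CD45 single positive cells. No member was called, beside 0.00666% of all genes tested (1 gene, with 609 at an unadjusted p under 0.05, and 1 with voom). *Prelp* was the lowest, with a log2 fold change of -2.41 (SE 0.58, adjusted p 1.0). It had 2 to 6 counts in each of the 6 double positive libraries (0.106 to 0.351 CPM). In CD45 single positive cells it was at 0.301, 3.61 and 0.700 in wild type and at 0.769, 1.003 and 1.09 in Cdh2-cKO. DESeq2 called *Prelp* (-2.43, adjusted p 0.0421, among 6 genes), and without wild type CD45 single positive replicate 2 the edgeR value was -1.62. *Lum* had -1.46 (SE 0.43) and *Dcn* -0.88 (SE 0.40), which became -1.06 and -0.34 without that library.

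The last comparison asked whether the libraries labelled Cdh2-cKO differed from wild type. In TdT single positive cells no member was called, beside 0.00666% of all genes (1 gene, with 1576 at an unadjusted p under 0.05, 0 with voom and 134 with DESeq2). All 9 fitted values were negative, with a median of -1.29 beside 0.00 over all genes. *Dcn* had -1.61 (SE 0.70, adjusted p 0.442), both of its wild type libraries lying above both Cdh2-cKO libraries. This held for 7 of the 9, all but *Bgn* and *Aspn*, beside 20.7% of all genes tested. *Lum* had -1.42 (SE 0.70), *Ogn* -1.37 (SE 0.81) and *Bgn* -0.99 (SE 0.66), and *Col1a1* -1.10 (SE 0.69). *Aspn*, at -0.10 (SE 0.75), turned to 0.65 without Cdh2-cKO replicate 1. *Ptprc* was at 164 and 89.9 CPM in the 2 Cdh2-cKO libraries, and wild type replicate 2 had 81.2. In wild type replicate 1 it was at 2.45, the lowest of the CD45- libraries. Summed pericyte markers were at 1123 and 1404 in wild type and at 255 and 384 in Cdh2-cKO, and summed epithelial markers at 33.8 to 566 and at 928 to 933. Summed leukocyte markers were at 130 to 5112 and at 4634 to 10591, and summed fibroblast markers at 28433 to 54905 and at 12580 to 27080. Their part in these values was not tested. In double negative cells no member was called either, beside 0.00% of all genes (1441 genes had an unadjusted p under 0.05, and voom called 0 and DESeq2 522 genes). The values there ran from -1.07 (*Podn*, SE 0.82) to 0.59 (*Fmod*, SE 1.02), 4 positive and 5 negative.

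In the CD45+ populations the genotypes were also compared on few counts, and no member was called in double positive cells (beside 0.00% of all genes, 515 of them with an unadjusted p under 0.05; voom 0 and DESeq2 1) or in CD45 single positive cells (beside 0.00%, 1474 with an unadjusted p under 0.05; voom 0 and DESeq2 26). The fitted CD45 difference was smaller in Cdh2-cKO for all 9 members with all libraries (186 of 198 values kept this sign with 1 library left out), most for *Lum* among those with counts in most CD45+ libraries, by -1.71 in log2 (SE 0.62, unadjusted p 0.0129, adjusted p 0.601). The 9 include *Fmod*, with 0 counts in all wild type CD45+ libraries. Its value (-1.79, SE 6509) and sign rest on the prior count. *Dcn* had -1.33 (SE 0.60) and *Bgn* -1.25 (SE 0.57). None was called, beside 0.00% of all genes (1157 with an unadjusted p under 0.05; voom 0 and DESeq2 30). The 2 genotypes thus share the direction and the call of the CD45 difference, and the test did not separate its size.

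**Figure D4:**
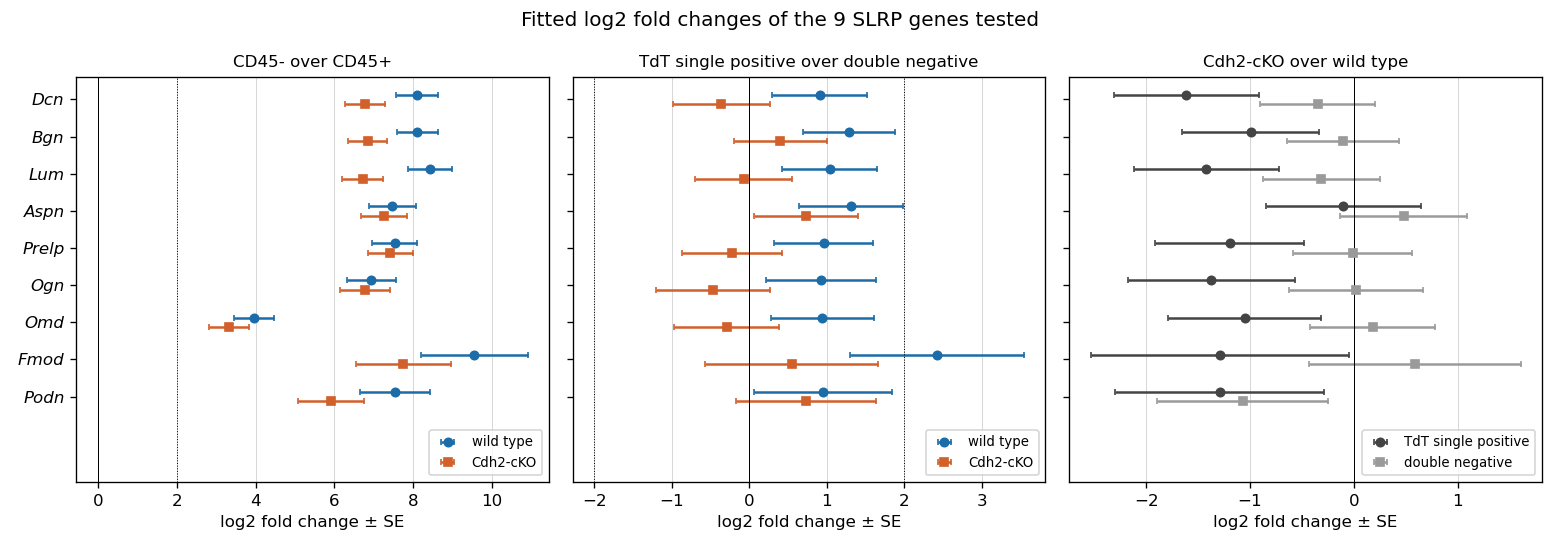
Fitted log2 fold changes ± SE of the 9 SLRP genes tested, in 3 panels: CD45- over CD45+ and TdT single positive over double negative, each in wild type (blue) and Cdh2-cKO (orange), and Cdh2-cKO over wild type in both CD45- populations, with dotted lines at the threshold of 2 where one applied. In the left panel every value lies between 3.32 and 9.54, above the threshold, and in the other panels no gene was called.

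Genes that work with the SLRPs were counted from lists of the same pathway for CD45- over CD45+, beside 16.1% of all genes called higher and 8.62% called lower in CD45- cells. Of 8 further SLRP genes, 3 passed the filter and all 3 were higher, *Ecm2* by 6.07, *Podnl1* by 3.97 and *Tsku* by 2.89 in log2. In all CD45+ libraries together they had 27, 115 and 662 counts. As for the members, a call adds no support where a gene passed the filter through the CD45- libraries, as *Ecm2* did. *Epyc* and *Optc*, the class III neighbours of *Kera* and *Prelp*, had 12 and 63 counts in all CD45- libraries together. Of 9 fibrillar and fibril-associated collagen genes, the ligands of the SLRPs in the matrix, 8 were higher, *Col1a1*, *Col1a2* (7.72), *Col3a1* and *Col5a2* (7.64) among them. Of 9 tested genes for proteases that cleave SLRPs or for matrix processing, 7 were higher and none lower. *Mmp3* differed by 6.82, *Pcolce*, which enhances procollagen cleavage, by 5.90 and *Mmp2* by 5.43, while *Mmp13*, at 0.19, was not called.

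The enzymes that build the sugar chains were more evenly spread. Of 22 genes of chondroitin and dermatan sulfate synthesis, 8 were higher and 1 lower, with a median of 0.67. *Csgalnact1*, which starts the chondroitin chain, was higher by 6.03. *Dse*, the epimerase that makes dermatan sulfate, was not called, at -0.23 (edgeR adjusted p 0.291). *Chst12* (0.76, adjusted p 3.68e-05) and *Chsy1* (0.81, adjusted p 0.000503) were not called because they lay below the fold threshold. Of 10 tested genes of keratan sulfate synthesis, 2 were higher and 1 was lower, *B3gnt7*, by -3.10. *B4galt1* (-0.53, edgeR adjusted p 0.0116) and *Fut8* (1.66, adjusted p 9.55e-08) were not called because they lay below the fold threshold. *St3gal1* (-0.12, adjusted p 0.346) was not called either. Of 10 receptors and co-receptors of soluble SLRPs, 2 were higher and 4 lower in CD45- cells. *Cd14* (-3.87) and *Tlr2* (-3.18), which take part in Toll-like receptor signalling, were among the lower, and *Cd44* (-0.06) and *Lrp1* (0.44) were not called. Of the 3 TGF-β ligand genes, *Tgfb2* was higher by 7.12 and *Tgfb3* by 2.77. *Tgfb1* had -0.82 (edgeR adjusted p 0.00169) and was not called because it lay below the fold threshold. Between TdT single positive and double negative cells, no gene of these lists was called. *Chpf2*, of chondroitin and dermatan sulfate synthesis, was higher in TdT single positive cells by 1.45 in log2 (SE 0.27, edgeR adjusted p 0.02005). It was not called because it lay below the fold threshold.

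Across the 10 CD45- libraries the members varied together to different degrees, as described by Pearson correlation of log2 CPM with a prior count of 2. The 36 pairs of members had r between 0.34 and 0.96 with a median of 0.74. With *Col1a1*, r ran from 0.41 for *Omd* to 0.97 for *Bgn*, and with *Ptprc* from -0.69 (*Lum*) to -0.32 (*Omd*). The gene most like each member over these libraries was *Gjc1* for *Dcn* (r = 0.98), *Adamts12* for *Bgn* (0.996), *Gpr153* for *Lum* (0.99) and *Efnb1* for *Aspn* (0.98). It was *Ces2g* for *Prelp* (0.97), *Acbd6* for *Ogn* (0.94), *Efemp1* for *Omd* (0.96), *Ick* for *Fmod* (0.97) and *Efs* for *Podn* (0.98). Each was the highest among all non-member genes tested, and the 10 points share 2 populations and 2 genotypes.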

How the data were processed

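RNA of 22 sorted populations had been made into cDNA with the Clontech SMARTer v1 kit and sequenced. The authors aligned the reads to GRCm38 with STAR 2.0.4b and counted them on Ensembl genes with featureCounts 1.45 (Subread), per the labels' processing notes. The deposited counts are raw whole numbers. The deposited CPM and RPKM values were computed by the authors from the counts and gene lengths. They were used only as a check, and deviated from the counts by at most 5.22e-14 in relative terms.

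Samples were grouped by the labels. In R 4.3.3, 355 genes annotated as rRNA were excluded, and a gene was kept where 2 or more libraries exceeded 1 CPM. The quasi-likelihood test of edgeR 4.0.16 was run with TMM factors on a model of 8 group means (population by genotype). Benjamini-Hochberg adjustment ran over all 15018 genes. The SE beside an edgeR value is the absolute log2 fold change divided by the square root of the F statistic, not an output of the fit. Populations were called at an adjusted p of 0.05 and a log2 fold change of 2, genotypes and interactions at the adjusted p alone. Normalized CPM and RPKM were computed from the counts and TMM-scaled totals, the deposited gene lengths being the union of exons. Symbols were found for 40254 of 41388 IDs. Totals ran from 16594228 to 26784003 counts (median 18977040), and the floor for a 0 is 3 counts in a library, or over a group where stated. Intervals (95%, exact) and floors cover counting error only, as no molecular identifiers are described. Per degree of freedom, the chi-square between replicates was 51.3 to 446, where sampling alone gives 1.

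The genes named are the 10 members, *Ptprc*, *Cdh2*, *Sp7*, *Col1a1*, *Col3a1*, the 1 non-member gene most correlated with each member tested, and up to 4 genes of each list with the highest mean CPM. *Cenpp*, *Epyc* and *Optc* were named as neighbours, *Bglap* and the epithelial genes as markers, and *Chpf2* for its adjusted p, after their values were seen. The members and lists were chosen with earlier results of these data known. Alternatives were voomWithQualityWeights (limma 3.58.1), DESeq2 1.42.0, RLE factors, no filter, 1 genotype alone, a replicate block, and leaving out libraries. Whether replicate numbers pair libraries was checked by the correlation of deviations from the group means. All 4 same-numbered TdT single positive and double negative pairs were over 0.1 (0.113 to 0.593), a hint from the data rather than the labels, so the block is given beside that comparison. The scripts were tested on simulated data.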

Additional observations from a re-analysis of the deposited data

How the results depend on the processing

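The 9 SLRP calls between CD45- and CD45+ cells, over both genotypes and in each, stayed under all alternatives that were run. The count of members called moved in 2 places. Between TdT single positive and double negative cells in wild type it was 0 to 1 when 1 library was left out, the 1 being *Bgn* without wild type double negative replicate 1. Between double positive and CD45 single positive cells DESeq2 called 1, *Prelp*. The cause was not tested. Of the members' differences with 1 library left out, 191 of 198 kept their sign for double positive over CD45 single positive, 191 for TdT in Cdh2-cKO, 186 for the CD45 effect between genotypes and 194 for the TdT effect between genotypes. Under the other alternatives it was 60 of 63, 69 of 72, 63 of 63 and 59 of 63. None of those that turned was called. The comparisons with CD45+ cells include *Fmod*, whose values there rest on the prior count. Between genotypes, signs turned as follows. For Cdh2-cKO over wild type in double negative cells, *Bgn* was 0.21 and *Ogn* -0.30 and *Omd* -0.22 with voom. *Prelp* there was 0.0055 with DESeq2, 0.0054 with RLE factors and 0.023 with the replicate block. *Ogn* was -0.34 and *Omd* -0.15 without wild type double negative replicate 3 and wild type CD45 single positive replicate 2, which stand apart from their groups, and again -0.34 and -0.15 without wild type double negative replicate 3 and Cdh2-cKO TdT single positive replicate 1, the CD45- libraries with the most *Ptprc*. In TdT single positive cells *Aspn* was 0.64 without the latter pair. Both pairs were chosen after seeing the data. With 1 library left out at a time, *Aspn* in TdT single positive cells ran from -1.79 to 0.65. In double negative cells *Dcn* ran from -0.71 to 0.18, *Lum* from -0.66 to 0.42, *Bgn* from -0.60 to 0.87, *Ogn* from -0.43 to 0.38, *Omd* from -0.15 to 0.61, *Prelp* from -0.40 to 0.45 and *Podn* from -1.57 to 0.38. Where a group was left with 1 library, that library was assumed to vary like the rest. Over all genes, TdT single positive over double negative gave 39 calls, 80 with voom, 130 with DESeq2, 23 with no filter, 23 with the block and 291 without the first pair, and 10 (without Cdh2-cKO double negative replicate 1) to 213 (without wild type double negative replicate 3) with 1 library out. In wild type the 14 became 1 with voom, 201 with DESeq2, 0 with 1 genotype alone, 4 with the block and 23 and 5 without the pairs. In Cdh2-cKO the 4 became 344, 437 and 656 in the first 3 of these, 52 with no filter and 527 and 14 without the pairs. The difference of the TdT effect between genotypes gave 1 call, 0 with voom, 558 with DESeq2, 2 with RLE factors, 101 with no filter, 0 with the block and 3 and 0 without the pairs. Cdh2-cKO over wild type in TdT single positive cells gave 1, 0 with voom, 134 with DESeq2 and 68 and 0 without the pairs, and in double negative cells 0, and 522 with DESeq2. DESeq2 gave 6 for the 1 of double positive over CD45 single positive, and, where edgeR gave 0, it gave 1 and 26 for the genotypes in the double positive and the CD45 single positive population, and 30 for the CD45 effect between genotypes. With 1 library out, the counts ran from 2 to 257 (TdT in wild type, highest without wild type double negative replicate 1), from 1 to 421 (in Cdh2-cKO, highest without wild type double negative replicate 3), from 0 to 604 (genotypes in double negative cells) and from 0 to 637 (TdT effect between genotypes), both highest without wild type double negative replicate 1, and from 0 to 89 (genotypes in TdT single positive cells) and 0 to 15 (CD45 effect), both highest without wild type TdT single positive replicate 2. The replicate block changed no call of a member. Over all populations, 4 of 15 same-numbered pairs in wild type and 6 of 15 in Cdh2-cKO had a correlation of deviations over 0.1, beside 5 of 30 and 1 of 30 differently numbered pairs. Deviations within a group sum to 0, so the differently numbered pairs are not an independent comparison.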
